A study of Macaca fascicularis with 8 samples.

Results

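Lung-only regions are stretches of accessible chromatin that were called as a peak in the lung of a cynomolgus monkey and in none of the other organs compared. The peak lists of colon, heart, kidney, the second liver library, lung, spleen and uterus were merged wherever peaks on the same chromosome shared at least 1 bp, and a region was kept when lung alone had a peak in it. This gave 14105 lung-only regions, each made of 1 lung peak, out of 83244 lung peaks (16.9%) and 245443 merged regions. The first liver library was left out of the merge and served as a list that had not chosen the members. The second library of the same organ had taken part in the merge.

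The study profiled single nuclei of 7 organs in 8 libraries with scATAC-seq, an assay in which the Tn5 transposase cuts open DNA and each fragment carries the barcode of its droplet. All tissue was labelled as normal. An adult female gave lung, heart, colon, uterus and the first of 2 liver libraries, and an adult male gave kidney, spleen and the second. The lung was a single library of the female, so organ, animal and library cannot be told apart, and no p-value was computed. The 13117 lung barcodes, called cells here, all had at least 1000 counts in peaks, with a median of 6595, a lowest value of 1211 and a highest of 92261, and a total of 102697781 counts. A count is 1 cut end of a fragment. Between 38 (first liver library) and 379 (spleen) lung barcode sequences also occurred in another library, at most 2.89% of the lung barcodes.

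Accessible chromatin marks promoters and distal elements such as enhancers, where transcription factors bind. Promoters of genes that all cells use are open in most tissues, whereas distal elements are often open in few cell types. Lung is built of epithelial cells that line airways and alveoli, endothelial cells of a dense capillary bed, stromal cells and many immune cells. The genome build of the peaks was not given in the sources used here; the study names macFas6 for its scRNA-seq data only. A reference gene table of another assembly failed a check of position: 5.42% of its 21214 gene ends lay in regions held by all 7 lists, against 5.28% after a shift of 50000 bp. Regions are therefore named by position only, groups of cells by number, and the lung label could not be checked against marker genes of lung. The paper prints windows around EGFL7 and JCHAIN. Each held 7 lung peaks, of which 0 at EGFL7 and 1 at JCHAIN were lung-only. A region missing from a list is one that was not called there, and counts of other organs at lung-only positions were not analysed here.

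Most lung-only regions were narrow and had a count in few cells at this depth. The median region was 391 bp wide (quartiles 240 and 560, range 1 to 6689), held 293 counts (quartiles 173 and 523) and had a count in 180 cells, or 1.37% of the lung cells. At the low end, 78 regions had no count in any cell, which at this depth allows up to 0.0229% of cells with a count each and sets no limit on the cells in which they are open. At the high end, 557 regions (3.95%) had a count in at least 5% of cells, and chr7:99071411-99074161 had the highest share, 15.2%. A count in at least 1% of cells was reached by 10094 regions (71.6%). A region had to be called as a peak to be a member, so these values are given as a description.

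Depth and width were higher in regions held by more lists, with the largest step at the last. From 1 list to 6 lists, the median count per lung peak went from 293 through 313, 313, 364 and 385 to 472, and with all 7 lists it reached 2114. The median share of cells with a count went from 1.37% with 1 list to 2.03% with 6 and 7.43% with 7. Median width was 391 bp with 1 list, 521 bp with 6 and 1351 bp with 7. Lung-only regions and peaks held by 2 or 3 lists thus lay close to each other, and their quartiles overlapped widely. Per kilobase of peak, the median was 807 counts in lung-only regions, 779 to 835 in the classes of 2 to 6 lists and 1416 with all 7. Under the rule of a 1 bp overlap, a wide peak meets a peak of another list more easily. The part of the rule in the trends of width and depth was not tested.

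**Figure D1:**
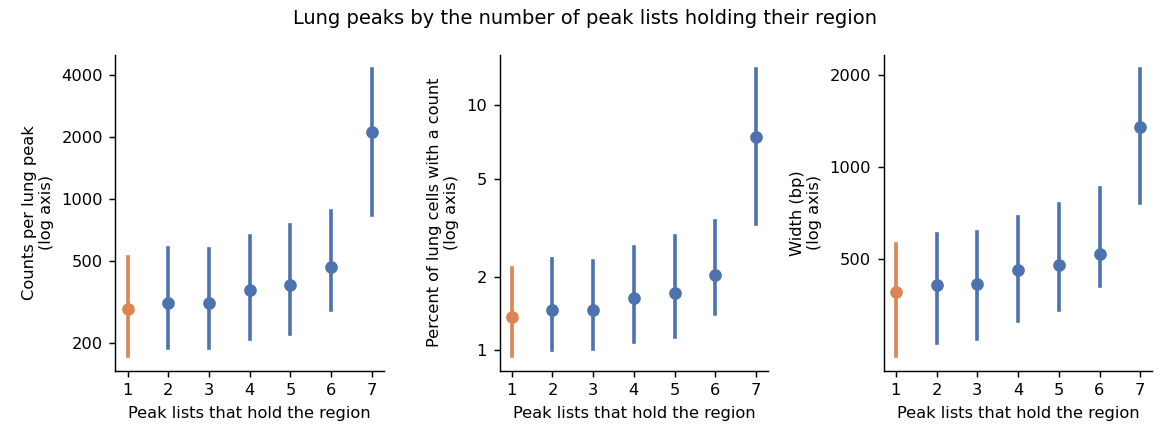
Counts per lung peak, percent of lung cells with a count and peak width in bp (3 log axes), by the number of the 7 peak lists that hold the region. Points are medians and lines run between the quartiles; lung-only regions are in orange, and the class of 7 lists stands apart at 2114 counts, 7.43% of cells and 1351 bp.

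The counts of lung-only regions came mostly from the wider ones. Lung-only regions as a whole held 5949150 counts, 5.79% of all lung counts on 16.9% of the lung peaks, whereas peaks held by all 7 lists took 68.9% of the counts on 27.6% of the peaks. The 1338 regions under 100 bp (9.49%) contributed 0.558% of the lung-only counts, the 4042 regions of 500 to 1000 bp (28.7%) contributed 50.8%, and the 550 regions of at least 1000 bp (3.90%) contributed 15.5%. The 2663 regions with the most counts held 50% of them. Among lung peaks under 100 bp 32.2% were lung-only, and among those of at least 1000 bp 2.65%. The overlap rule itself favours narrow peaks as members, and its part in these values was not tested. In classes of width, the median share of cells with a count in lung-only regions and in other lung peaks was 0.785% and 0.724% at 100 to 250 bp, 1.31% and 1.33% at 250 to 500 bp and 2.57% and 2.66% at 500 to 1000 bp. It was 5.44% and 9.43% at 1000 bp or more, a class without an upper limit in which the widths of both sets differ.

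Entries of the count matrix also differed in kind. In lung-only regions, 66.3% of the nonzero entries were even and 30.8% were a single cut, against 93.2% and 5.18% in peaks held by all 7 lists. An even count arises when both ends of a fragment fall into the same peak. The median widths of the 2 classes were 391 and 1351 bp, and their part in this difference was not tested.

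By the same rule, the other lists contained 24599 colon-only regions (22.7% of colon peaks), 12391 heart-only regions (18.03%), 29922 kidney-only regions (27.7%), 30856 regions of the second liver library only (27.8%), 12217 spleen-only regions (13.4%) and 2276 uterus-only regions (6.13%). The lung share lay between those of spleen and heart. The median width of these organ-only regions ranged from 302 bp in uterus to 425 bp in the second liver library. Lung-only regions took 5.79% of their library's counts. The organ-only regions took 1.76% in uterus, 2.62% in spleen, 5.96% in colon, 6.04% in heart, 11.5% in kidney and 11.6% in the second liver library. The libraries differed in depth and in the number of cells, and their part in these shares was not tested.

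The cells of the lung used lung-only regions very unequally, and formed 2 modes. The share of a cell's counts that fell in lung-only regions had a median of 3.74%, a 10th percentile of 1.37% and a 90th percentile of 11.1%, with extremes of 0.147% and 16.8%. The number of cells per step of 0.5 percentage points peaked with 1620 cells at 2.5% to 3%, sank to 163 cells at 4.5% to 5% and peaked again with 553 cells at 9% to 9.5%. A total of 6730 cells lay below 4%, 5648 at 6% or more, and 739 (5.63%) in between. Likely doublets were the 1720 cells (13.1%) with the highest score on simulated doublets, a number fixed by the count of cells alone. They made up 39.2% of the cells in between, 8.59% of those below and 15.1% of those above. These shares are no measured rates of doublets. The ratio of the 90th to the 10th percentile was 8.06 in lung, 7.40 for colon-only regions in colon, 6.46 for uterus-only regions in uterus, 5.16 for the second liver library, 3.29 in heart, 2.77 in spleen and 1.97 in kidney, each for the organ's own regions.

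The depth of the cells differed along with the share. Across the 13117 cells, the lung-only share had a Pearson correlation of 0.11 with the logarithm of the total count, a description over cells of 1 library. The median share was 3.28% in the shallowest 25% of cells and 5.85% in the deepest. Regions on odd-numbered and even-numbered chromosomes marked the same cells, with a Pearson correlation of 0.96 and a Spearman correlation of 0.95 between the shares of 7075 and of 6658 regions, values which share the library and each cell's depth.

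To read how far the counts were concentrated, cells were ranked by their lung-only share on the odd-numbered chromosomes and the counts on the even-numbered ones were summed in the top 10% of cells, and the reverse. The top 1312 cells held 20.7% of the held-out lung-only counts and 10.2% of all counts, a ratio of 2.02. For peaks held by 2 lists the ratio was 1.58, with 3 lists 1.28, with 4 lists 1.35, with 5 lists 1.14, with 6 lists 1.07 and with all 7 lists 1.11. In the same reading, colon-only regions gave a ratio of 2.46 in colon, heart-only regions 1.61 in heart and kidney-only regions 1.17 in kidney. Without any hold-out, 2237 cells (17.1%) held 50% of the lung-only counts, against 3476 cells (26.5%) for the counts of all peaks.

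The cells with a high share belonged to the largest group of lung cells. Cells were grouped by the Leiden method on peaks held by all 7 lists alone, so no lung-only region entered the grouping. At resolution 0.02, a setting chosen after the values were seen, 5 groups of at least 50 cells and 1 single cell were found. Group 1, with 5753 cells (43.9%), had 9.56% of its counts in lung-only regions (exact Poisson 95% interval 9.55 to 9.57, on counts divided by 2). Group 2, with 3465 cells, had 3.06%, group 3 with 1672 cells 2.71%, group 5 with 1053 cells 2.42% and group 4 with 1173 cells 1.41%. The intervals reflect counting error only and did not overlap between any pair of groups. Group 1 supplied 74.7% of all lung-only counts from 45.2% of the counts of the library, group 2 supplied 13.2%, group 3 8.47%, group 5 2.08% and group 4 1.63%. Lung peaks form 1 list for the whole library. A region open only in a small group may have needed a stronger signal there to be called. The part of this in the values of the groups was not tested.

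The spread within groups was smaller than the distance between group 1 and the rest. In group 1 the share per cell ran from a 10th percentile of 6.54% over a median of 9.51% to a 90th percentile of 12.1%. The medians of groups 2, 3, 5 and 4 were 2.73%, 2.56%, 2.11% and 0.777%, and their 90th percentiles were 4.27%, 3.75%, 3.42% and 2.76%. A cell of group 1 had counts in a median of 347 lung-only regions, a cell of group 3 in 135, of group 2 in 98, of group 5 in 54 and of group 4 in 22. Median depth also differed, from 10370.5 counts per cell in group 3 and 7025 in group 1 to 4067 in group 5. With each cell thinned to 1000 counts, the medians of groups 1 to 5 were 9.50%, 2.70%, 2.50%, 0.80% and 2.20%. Random thinning evens out the depth but leaves the expected share of a cell as it is. Peaks held by all 7 lists took the smallest part of the counts in group 1 (63.0%) and the largest in group 4 (78.9%).

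**Figure D2:**
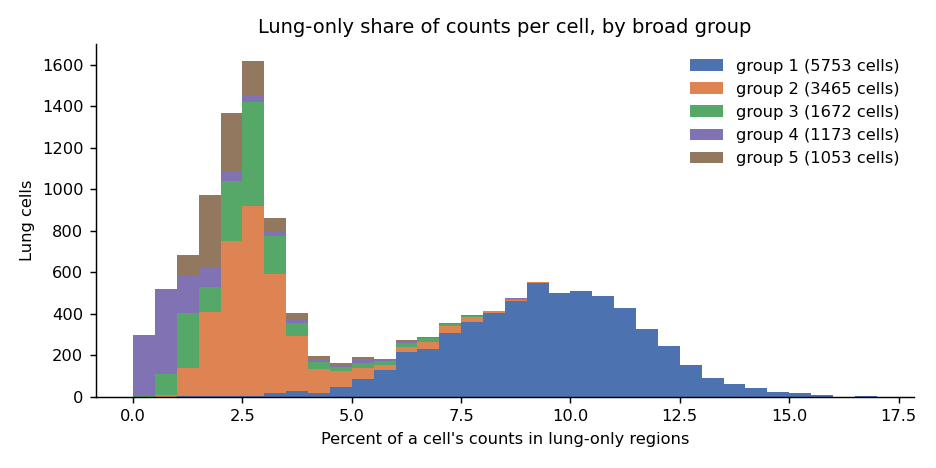
Number of lung cells (vertical axis) by the percent of a cell's counts in lung-only regions (horizontal axis, steps of 0.5 percentage points), stacked by the 5 broad groups of cells. The right-hand mode, around 9% to 9.5%, was made up almost wholly of group 1, and group 4 lay at the lowest shares with a median of 0.777%.

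At the finer resolution of 0.8, 14 clusters of at least 50 cells and 1 single cell were found, and 88.0% of the variance of the per-cell share lay between clusters. The clusters inside group 1 were not alike. Cluster 2 (1774 cells) had 11.0% of its counts in lung-only regions, cluster 5 (1186 cells) 9.12%, cluster 1 (1877 cells) 8.95% and cluster 8 (916 cells) 6.88%. Their median depths fell in the same order, at 9241.5, 7480, 6097 and 5718.5 counts per cell, and the part of depth was not tested. Outside group 1, cluster 14 stood alone with 7.47%, and 63 of its 68 cells were in group 2. Its median depth of 13797.5 counts per cell was the highest of all clusters, and the part of doublets in it was not tested. The other clusters lay between 1.01% in cluster 13 and 3.34% in cluster 10.

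The next question was in which cells each region had its counts. Cells were split at random into 2 sets. The first set named the cluster with the highest rate of counts for each region, and in the second set that cluster's rate was divided by the rate over all other cells, with 1 added to both counts. Of the 14105 lung-only regions, 9751 had the at least 200 counts needed for this reading, and the shallower ones are not described by it. At resolution 0.8, 5070 of the 9751 (52.0%) had a held-out fold of at least 4, against a background of 35.0% of all 68117 lung peaks read in the same way. This background includes the deeper peaks held by all 7 lists. At 200 to 300 counts, 53.4% of lung-only regions passed, against 47.5% of peaks in 2 to 6 lists and 39.4% in 7. At 2000 counts or more, the values were 32.1%, 21.4% and 2.38%. The median log2 fold was 2.05 in lung-only regions, 2.05, 2.15 and 2.12 with 2, 3 and 4 lists, 1.75 with 5, 1.35 with 6 and 0.82 with 7. At this resolution the values of lung-only regions lay among those of peaks held by 2 to 4 lists. The held-out cells gave the same top cluster in 57.5% of the lung-only regions, so many assignments to a cluster were unsteady. Cluster 14, with 68 cells, was on top in 1178 regions, and the held-out cells repeated this in 24.8% of them.

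With the 5 broad groups, a larger share of lung-only regions than of each class of shared peaks passed 4-fold. Of the 9751 lung-only regions, 8648 (88.7%) had a held-out fold of at least 4 in their top group, against a background of 47.5%. The share called was 79.3% with 2 lists, 72.9% with 3, 66.8% with 4, 48.6% with 5, 29.8% with 6 and 12.01% with all 7. The median lung-only region had an 8.02-fold higher rate in its top group, with quartiles of 2.51 and 3.47 for the log2 fold. The upper quartile was higher in peaks held by 2, 3 and 4 lists, at 3.53, 3.71 and 3.55, and their lower quartiles were 2.17, 1.92 and 1.65. In 96.8% of the lung-only regions, the held-out cells gave the same top group as the cells that had chosen it. In the comparison of clusters, the other cells include the remaining clusters of the same group.

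Most lung-only regions were highest in group 1. Group 1 was the top group of 7664 of the 9751 regions (78.6%), group 2 of 966 (9.91%), group 3 of 852 (8.74%), group 5 of 263 (2.70%) and group 4 of 6. The share of group 1 depended on the minimum count, which regions high in a large group pass more easily: it was 75.3% at a minimum of 100 counts and 85.2% at 400. Peak calling over the whole library may favour a large group as well, and its part was not tested. From 1 list to 7 lists the share of group 1 went from 78.6% through 57.4%, 38.0%, 29.9%, 25.3% and 19.2% to 11.4%. When cells were grouped on all lung peaks that were not lung-only, group 1 was divided, and the part with most of its cells was on top in 48.3% of the lung-only regions and both parts together in 80.5%. Seen from the groups, 34.6% of all lung peaks with group 1 on top were lung-only, but 9.19% of those with group 2, 6.53% with group 3, 2.39% with group 5 and 0.0526% with group 4. Group 4 was on top in 11402 other lung peaks, but its low share was not particular to lung-only regions: it was on top in 0.0615% of these, in 0.520% of peaks held by 2 lists and in 0.0773% of those shared with kidney alone, against 32.7% of peaks held by all 7 lists.

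Folds by top group must be read with the filter in mind, since a region high in a small group reached 200 counts over all cells only if it was strongly raised there. The median log2 fold was 2.94 for regions with group 1 on top, 3.92 for group 2 and 4.28 for group 3, and 91.7%, 90.4% and 81.3% of them passed 4-fold. Within its own top group, the median region had a count in 3.67% of the cells of group 1, 4.76% of group 2 and 8.43% of group 3. For group 5, the median log2 fold was 1.05, 56 of 263 regions passed 4-fold, and the held-out cells gave the same top group in 56.7% of the regions. Assignments to group 5 and group 4 were therefore unsteady, and the 6 regions of group 4 gave a median log2 fold of 0.27. Regions with group 1 on top were also the widest, with a median of 503 bp, against 463 bp for group 2, 423 bp for group 5 and 399 bp for group 3.

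**Figure D3:**
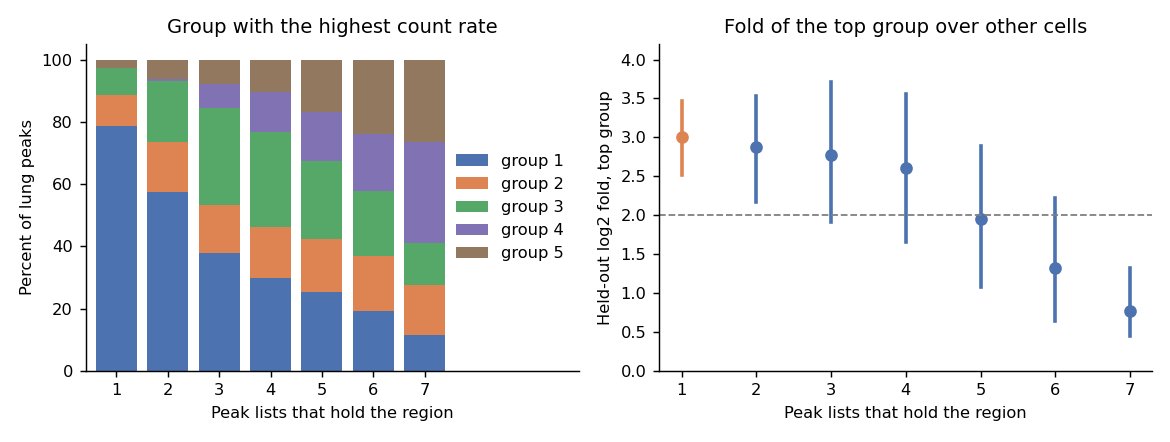
Left, percent of lung peaks with at least 200 counts by the broad group with the highest count rate, for peaks held by 1 to 7 lists; group 1 was on top in 78.6% of lung-only regions (1 list) and 11.4% with 7 lists. Right, held-out log2 fold of the top group over all other lung cells (points are medians, lines run between the quartiles, lung-only regions are in orange, the dashed line marks 4-fold).

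Regions held by lung and 1 further organ showed how the pattern moved with the partner. Group 1 was on top in 86.6% of 1293 regions shared with kidney, in 70.3% of 1172 shared with colon, in 67.0% of 1270 shared with the second liver library and in 67.0% of 182 shared with uterus. Regions shared with heart were divided, with 45.1% of 1234 in group 1 and 39.4% in group 2. Regions shared with spleen, an organ rich in lymphocytes, had group 3 on top in 65.0% of 1198 and group 1 in 14.2%. The lung-only regions, at 78.6% in group 1 and 8.74% in group 3, lay nearest to the classes of kidney and colon. In counts, regions shared with spleen alone took up 2.54 times as large a share of group 3 as of all lung cells, while lung-only regions took up 0.467 times as large a share of group 3 and 1.65 times of group 1.

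The 10 lung-only regions with the most counts illustrated both kinds. Their rates are given as counts in the region per 1000000 counts of the group in all lung peaks. The first was chr20:71923596-71926007 (2412 bp), with 6297 counts in 1981 cells. Its rate was 227 in group 2 and 4.41, 6.87, 11.0 and 16.8 in groups 1, 3, 4 and 5. It had a count in 51.6% of the cells of group 2 and in 1.46% of those of group 1. The second, chr20:72231703-72238391, was also the widest lung-only region at 6689 bp, with 5201 counts. Its rate was 174 per 1000000 in group 2, 33.0 in group 5 and 7.08 to 14.4 in the other groups. Both lay on chromosome 20 less than 1 Mb apart, and group 2 stood far above every other group in both.

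The remaining 8 had group 1 on top. The region chr7:99071411-99074161 had 99.4 counts per 1000000 in group 1 and at most 12.5 elsewhere. The region chr2:40262765-40264165 had 98.8 per 1000000 in group 1 and at most 9.01 elsewhere. Next came chr11:68430320-68432307, with 82.3 per 1000000 in group 1 and at most 6.65 elsewhere. The regions chr2:143585310-143587106, chr1:147989486-147991109 and chr13:97411537-97412614 had 77.4, 76.6 and 74.2 per 1000000 in group 1 and at most 8.57, 7.82 and 9.97 elsewhere. In these 6 regions a single group was high and the others lay at a common low level.

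The other 2 were raised in a second group as well. The region chr3:139813953-139816971 had 84.7 counts per 1000000 in group 1, 59.8 in group 5 and at most 9.71 in the rest. The region chr20:21500836-21503049 had 62.3 in group 1, 27.3 in group 2 and at most 8.99 in the rest. Inside group 1 the finer clusters could differ widely. The region chr2:143585310-143587106 had 132 counts per 1000000 in cluster 2 and 99.4 in cluster 5, but 15.2 in cluster 1 and 12.2 in cluster 8. By contrast, chr1:147989486-147991109 had 91.4 in cluster 1, 78.0 in cluster 2, 64.5 in cluster 5 and 56.8 in cluster 8. Of the other wide regions, chr7:43422243-43426019 (3777 bp) had 74.5 per 1000000 in group 2 and at most 17.8 elsewhere, and chr16:74701378-74704497 (3120 bp) had 71.1 in group 1 and at most 10.6 elsewhere.

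The highest held-out folds among the clusters all belonged to cluster 4, the larger part of group 3. In order of fold, the 10 regions were chr5:137360047-137360467, chr6:167017558-167017959, chr6:143940500-143940936, chr15:106794479-106794878, chr6:157098040-157098367, chr11:11130666-11130929, chr5:97671304-97671670, chr9:108343648-108344048, chr7:68319769-68320046 and chr16:31730165-31730594. The fold ran from 171 in the first to 88.8 in the last. In the first, 144 held-out counts lay in cluster 4 and 4 in all other cells, 19.4 against 0.0916 per 1000000. In the last, the numbers were 180 and 11 counts. Over all cells, the 10 regions had 10.7 to 21.6 counts per 1000000 in group 3 and at most 0.586 in any other group. They were small regions of 264 to 437 bp and 216 to 413 counts, with a count in 7.95% to 12.5% of the cells of group 3. Since they were picked for their held-out fold, the folds are given as a description.

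Some lung-only regions owed their place to a narrow margin. A width of 1 bp was found in 33 regions, 24 of them without a count. The 6 with the most had 2 counts each, among them chr1:165469931-165469931, chr9:7221680-7221680 and chr10:8410162-8410162, too few to be assigned to any group. The region chr14:31473760-31473818 (59 bp, 31 counts) touched a peak of another list without sharing a base with it. The regions chr1:84567548-84568122 (491 counts) and chr4:14163089-14163682 (361 counts) had 1 bp between them and the nearest such peak, and the second of them lay wholly inside a peak of the first liver library. On the other side of the threshold, chr20:10440532-10442278 (3214 counts) shared 1 bp with a colon peak, chr10:21975906-21977105 (1544 counts) with a kidney peak and chr6:14496155-14497564 (958 counts) with a peak of the second liver library. These 3 were not members, although in the first group 1 had 61.9 counts per 1000000 against at most 6.80 elsewhere. Few peaks were decided so closely: of the 69139 lung peaks that overlapped another list, 494 did so by less than 10 bp and the median overlap was 526 bp.

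Most lung-only regions lay near, but not next to, peaks of other organs. The median gap to the nearest peak of another list was 2782 bp (quartiles 1115 and 7296). Within 100 bp of such a peak were 268 regions (1.90%), within 1000 bp 3185 (22.6%), and beyond 50000 bp 358 (2.54%). Regions farther away were slightly wider and deeper. The median count was 232.5 within 100 bp, 294 at 1000 to 5000 bp and 344 beyond 50000 bp, and the median width 345 bp, 394 bp and 404 bp.

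Lung-only regions were found on all 20 autosomes and X, but took up unequal shares of the peaks there. Chromosome 19 had the lowest share, with 326 of its 3517 lung peaks (9.27%), followed by chromosome 16 with 13.3%. The highest shares were 21.4% on chromosome 17, 20.97% on chromosome 18, 20.4% on X and 20.3% on chromosome 5. In counts, the lung-only part ranged from 1.60% on chromosome 19 to 9.28% on chromosome 18. Shares ran against the density of peaks and against the share held by all lists. Chromosome 19 had 59.8 lung peaks per Mb, with 44.0% of them in all 7 lists, and chromosome 17 had 22.0 per Mb, with 20.5% in all 7. Per Mb up to the last peak, the number of lung-only regions ranged from 2.49 on X and 3.47 on chromosome 5 to 7.27 on chromosome 16.

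The order of the chromosomes was much the same in other organs. Chromosomes 19 and 16 had the lowest shares of colon-only (12.5% and 16.5%), heart-only (5.90% and 12.04%) and kidney-only regions (13.8% and 21.4%) too. Chromosome X was an exception: its share ranked 19th of 21 from below in lung and 20th in colon, but 3rd in heart, where it was 13.4%. Median width and median share of cells changed little between chromosomes. Median width ranged from 334 bp on X to 404.5 bp on chromosome 20, and the median share of cells from 1.201% on chromosome 19 to 1.43% on chromosome 18.

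**Figure D4:**
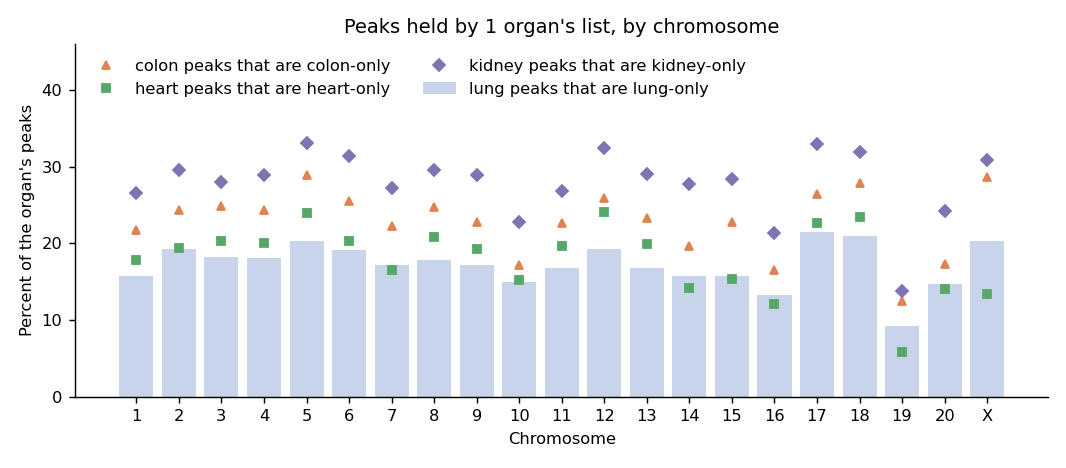
Percent of an organ's peaks held by its own list only, by chromosome, for lung (bars), colon (triangles), heart (squares) and kidney (diamonds). Chromosome 19 was lowest in each of the 4 organs, at 9.27% in lung, and X was high in lung, colon and kidney but at 13.4% in heart.

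Along the chromosomes, lung-only regions lay together more often than other lung peaks lay beside them. The nearest lung peak was itself lung-only for 4251 of the 14105 lung-only regions (30.1%) and for 9774 of the 69139 other lung peaks (14.1%). The nearest lung peak of any kind was 5234 bp away in the median, against 3910 bp for other lung peaks. In runs of 2 or more lung-only regions with no other lung peak between them were 6551 regions (46.4%), and 133 runs held 5 or more. In windows of 1 Mb the number of lung-only regions had a mean of 4.98 and a variance of 19.0 over 2834 windows, with 357 windows empty and 28 regions at most.

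Consecutive lung-only regions, here among the 9751 with at least 200 counts, shared the top group most often when they lay close to each other. Shallower lung-only regions between them were skipped. Of 732 consecutive pairs less than 5000 bp apart, 83.3% had the same top group, of 2892 pairs at 200000 to 1000000 bp 63.0%, and of 619 pairs beyond that 64.9%. Because group 1 was on top in most regions, pairs whose first region had another top group were read apart. Of 120 such pairs less than 5000 bp apart 46.7% shared the top group. The share was 34.2% at 5000 to 20000 bp, 28.6% at 20000 to 50000 bp, 15.9% at 50000 to 200000 bp and 10.1% at 200000 to 1000000 bp, and was 6.98% of 129 pairs beyond that.

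The longest run held 13 regions, on chr6:4095064-4331343. Its regions together had 99.98 counts per 1000000 in group 1 and 9.66 to 17.2 in the other groups, and all 8 with at least 200 counts had group 1 on top. Runs of 12 regions on chr3:61852502-65346286 and of 11 regions on chr14:117080813-117255572 and chr2:25427393-27448148 likewise had group 1 on top in each region with at least 200 counts (11, 10 and 9 regions). A different run of 10 regions filled 37.1 kb on chr20:72207753-72244849, around the widest lung-only region. It had 371 counts per 1000000 in group 2, 74.5 in group 5 and 16.4 to 27.6 in the rest, and group 2 was on top in 5 of its 6 regions with at least 200 counts. None of these 10 regions had a peak in the first liver library, against 10.3% of all lung-only regions. In the runs on chr6, chr3, chr14 and chr2, 1, 2, 0 and 1 regions had such a peak.

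The densest windows held regions of several top groups, as did the lung-only regions as a whole. Of all 9751 lung-only regions with at least 200 counts, group 1 was on top in 78.6%. The window chr16:60000001-61000000 held 28 lung-only regions among 136 lung peaks, with group 1 on top in 8, group 2 in 3 and group 3 in 1 of the 12 regions with at least 200 counts. The window chr17:93000001-94000000 held 23 among 82 lung peaks, with 16, 2 and 1 of 19. The window chr20:10000001-11000000 held 23 among 96, with group 1 on top in 11, group 2 in 3 and group 5 in 1 of 15. In all 3 windows, group 1 had the highest summed rate, with 125, 211 and 123 counts per 1000000, and group 4 the lowest, with 32.0, 35.7 and 14.96.

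The first liver library, which the merge had not used, held a peak in 1448 of the lung-only regions (10.3%, exact binomial 95% interval 9.77 to 10.8). This is a shallow library of 2110 barcodes and 2627231 counts from the same female as the lung. The second liver library was in the merge. Regions with a peak in it were therefore already removed from every organ-only set but its own, which lowers the overlap of those sets. By the same reading it held a peak in 5.58% of uterus-only regions, 6.04% of kidney-only, 12.9% of colon-only, 13.0% of heart-only, 33.0% of spleen-only and 33.4% of regions found only in the second liver library. Spleen-only regions thus overlapped it about as often as those of the other liver, with intervals of 32.2 to 33.8 and 32.9 to 33.9, and lung-only regions far less often. Such intervals cover counting error over regions only. Regions are not replicates, and each set comes from 1 library. Of the lung peaks in 2 lists 35.6% had such a peak, in 3 lists 64.1% and in all 7 lists 96.6%. Peaks in 2 lists differed by partner: 9.94% with kidney, 13.8% with uterus, 22.5% with colon and 27.1% with heart. With the second liver library it was 52.1% and with spleen 67.7%. Lung-only regions thus lay near the class shared with kidney. When the 7 lists were first reduced to peaks in at least 1% of their library's cells, 24.6% of the then 15862 lung-only regions overlapped the first liver library.

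The overlap with the first liver library differed by top group and by distance to other peaks, and little between sets of regions ordered by count. It was 5.77% (interval 5.26 to 6.31) for lung-only regions with group 1 on top, 12.5% (8.80 to 17.2) for group 5, 21.5% (19.0 to 24.3) for group 2 and 36.5% (33.3 to 39.8) for group 3. Lung peaks held by 2 lists gave the same order, with 20.5% for group 1, 30.8% for group 5, 43.1% for group 2 and 74.0% for group 3. Group 3 was also the group raised in regions shared with spleen. Among the clusters, it was highest at 67.9% of 53 regions with cluster 11 on top and lowest at 3.91% of 486 with cluster 8. It was 34.8% of 712 with cluster 4 and 5.74% of 2894 with cluster 2. For cluster 11, the held-out cells gave the same top cluster in only 49.1% of the regions. By distance from the other lists it was 18.7% within 100 bp, 10.4% at 1000 to 5000 bp and 5.03% beyond 50000 bp. With the lung-only regions ordered by count and cut into 4 equal sets it was, from the lowest to the highest, 10.6%, 11.3%, 9.76% and 9.39%. The peaks of the first liver library themselves were shallow, with a median of 4 counts in the 1450 that touched lung-only regions and no count in 280 of them (19.3%), against 21.7% of all its peaks.

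**Figure D5:**
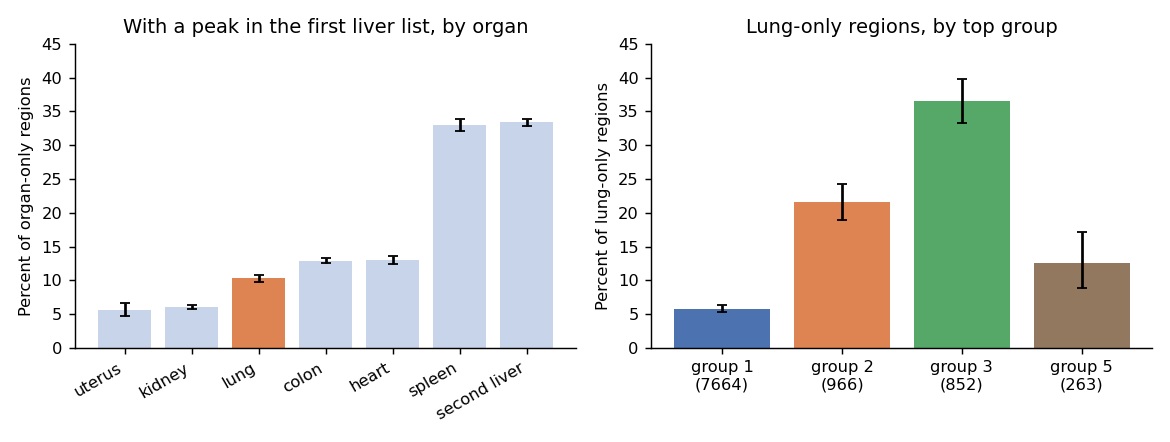
Left, percent of the regions found in 1 organ's list only that had a peak in the first liver library, with exact binomial 95% intervals; lung-only regions (orange) were at 10.3%. Right, the same for lung-only regions with at least 200 counts by the broad group with the highest rate (number of regions below each bar; group 4, with 6 regions, is not drawn), from 5.77% in group 1 to 36.5% in group 3.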

How the data were processed

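Per the submitters' processing notes, the authors ran Cell Ranger ATAC 1.2.0 on each library and deposited barcodes, peaks and raw counts of cut ends in each peak of each barcode, with no normalization. Their methods state that the number of cells was forced for lung; the deposited lung file has 13117 barcodes, more than that number. The authors filtered doublets afterwards, so the deposited counts contain them. The members and lists were chosen with earlier results of these data known.

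Here, peaks were merged at an overlap of 1 bp. Lung barcodes with at least 1000 counts were binarized over peaks held by all 7 lists, TF-IDF weighted and projected on 30 singular vectors, without any whose correlation with depth was over 0.75. Leiden clusters on 20 shared neighbours were found at resolution 0.8 and 0.02 (leidenalg 0.10.2, igraph 0.11.9, numpy 2.4.6, scipy 1.17.1, pandas 2.3.3, scikit-learn 1.9.0, Python 3.11.15). Clusters under 50 cells could not be a top cluster. Held-out folds used regions with at least 200 counts. Clusters were found on all cells, those of the held-out part included. Doublets were left in, and their removal was an alternative. Scripts were tested on simulated data. Intervals are exact, at 95%, and cover counting error only. Regions printed are the 10 with the most counts, the 10 with the highest cluster fold among those with at least 20 held-out counts in the cluster, the 3 widest, narrowest (ties by counts, then by position) and nearest to another list, the 3 lung peaks with the smallest overlap, the longest run and the 3 densest windows; the other runs were chosen after their values were seen. Alternatives covered overlap rules, lists left out, depth, doublets, binarized or thinned counts and clustering settings.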

Additional observations from a re-analysis of the deposited data

How the results depend on the processing

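Of 107 recomputed values, 8 of them under settings chosen after seeing the data, 37 stayed within the counting interval of the value in the report and 60 moved beyond it. The other 10 were the number of lung-only regions, which stayed within 1.5 times its value. The counting intervals are narrow, so small shifts count as moved. Each organ but liver is 1 library, and depth limits the reading of the 78 regions at 0, of the 1 bp peaks and of the first liver library.

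The percent of lung peaks that were lung-only and their percent of lung counts were 17.6% and 6.05% when shared peaks had to overlap by at least 50% of the shorter, 15.3% and 5.31% when peaks up to 500 bp apart counted as shared, 15.2% and 5.21% with the first liver library as a further list, and 22.8% and 8.46% with only peaks in at least 1% of cells. With 1 list left out, they were 19.1% and 6.59% (colon), 19.1% and 6.63% (heart), 19.2% and 6.74% (kidney, with a median width of 396 bp), 19.6% and 6.76% (second liver library), 19.1% and 6.41% (spleen) and 17.3% and 5.92% (uterus). The percent of counts was 5.80% at a minimum of 2000 counts, with a median of 1.43% of cells per region, 5.71% without likely doublets, 7.05% with counts set to 0 or 1, and 5.56% with cells thinned to 1000 counts, where a median region had a count in 0.252% of cells. Peaks in at least 1% of cells gave medians of 387 counts, 1.71% of cells and 470 bp. Removal of 1720 likely doublets, a number fixed by the count of cells, gave 221 counts and 1.202% of cells.

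The held-out share in the top 10% of cells was 20.6% under both other overlap rules, 18.5% with peaks in at least 1% of cells, 21.4% with the first liver library included, 22.2% without likely doublets, 22.7% with counts set to 0 or 1 and 20.5% with thinned cells. The top 5% held 9.36% and the top 20% held 42.0%. The percent of regions with a cluster fold of at least 4 was 65.5% at resolution 0.4, 45.6% at 1.2, 88.7% at 0.02 (88.3% with another seed), 55.2% with another seed at 0.8, 50.6% with clusters on all lung peaks that were not lung-only, 49.9% at a minimum of 400 counts, 50.8% with the first liver library included, 61.0% without likely doublets and 47.4% with counts set to 0 or 1. Group 1 was highest in 80.3% of regions without likely doublets, 75.3% and 85.2% at minimums of 100 and 400 counts, and 48.3% with clusters on all lung peaks that were not lung-only, where it was divided. The overlap with the first liver library was 10.9% and 9.63% under the other overlap rules and 24.6% with peaks in at least 1% of cells, and the nearest lung peak was lung-only for 35.8% of regions with that filter and 28.6% with the first liver library included. The cause of these shifts was not tested, other than that a resolution sets the number of groups and a filter the peaks compared. No paired analysis was possible because each organ but liver is a single library.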
